A study of Danio rerio with 6 samples.

Results

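Protocadherins are cadherin-family adhesion proteins of the cell surface. They are described here in fluorescent hindbrain cells of zebrafish embryos raised with or without added retinoic acid. Members were all genes whose symbol begins with pcdh, in any letter case, with a sum of at least 30 counts over the 6 libraries. This gave 55 genes of the 32520 in the deposited tables, 35 clustered and 20 non-clustered. Another 3 listed genes fell under the minimum, pcdh20l with 9 counts, pcdh2ac with 3 and pcdh2ab11 with 0. The sorted cells came from the posterior hindbrain of Tg(isl1:Kaede) embryos, in which regulatory sequence of isl1 drives a fluorescent protein in cranial motor neurons, and the labels call them vagus motor neurons. All embryos were kept in 0.2 mM PTU, a pigment blocker. From 24 hours post fertilization (hpf), 1 group received 50 nM retinoic acid (RA) and the other the same volume of its solvent DMSO, and both were collected at 38 hpf. Each group has 3 libraries, of 4500 to 10000 cells each, numbered 1, 4 and 10 for DMSO and 6, 9 and 12 for RA as in their labels. The labels do not say whether the libraries came from separate clutches, so p-values measure the spread between these samples.

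Clustered protocadherin genes stand side by side in tandem arrays. In the alpha and gamma groups of mammals, each array gene supplies its own large first exon, which encodes the extracellular cadherin repeats. It splices this exon to constant exons shared by its group. Single neurons use a few of the promoters, and the resulting surface mixture lets neurites tell self from non-self. The zebrafish has a pair of such arrays. Non-clustered protocadherins are separate genes. The delta1 kind (pcdh1, pcdh7, pcdh9, pcdh11) and the delta2 kind (pcdh8, pcdh10, pcdh17, pcdh18, pcdh19) differ in their intracellular tails, and several delta2 tails recruit the WAVE complex, a regulator of actin branching. In developing brain and spinal cord, delta protocadherins mark subsets of neurons and act in axon growth and sorting.

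The libraries held 15971653 to 23411427 counted fragments, of which 23857 to 44065 fell on protocadherins. Levels are given as CPM, counts-per-million after TMM scaling of the library totals, and levels of different genes are compared as RPKM, CPM per 1000 bases of annotated exon. Libraries of the same group differed far beyond sampling noise (chi-square divided by its degrees of freedom 15.9 to 71.2), and each was used as a replicate. This spread does not show whether they came from separate clutches. The branchiomotor markers isl1a, phox2a and phox2bb were abundant in all 6 libraries, and their list of 8 genes summed to 5808 to 7786 CPM in DMSO and 3965 to 5019 CPM in RA. Of these 8 genes, 3 were higher and 5 lower in RA (median log2 fold change -0.28). In edgeR tbx20 passed the test, lower in RA, and DESeq2 also called isl1a, phox2a and phox2bb lower. Genes of other cells were present as well. Neural progenitor and glial genes (10) summed to 1874 to 2152 CPM in DMSO and 1503 to 2456 CPM in RA, with none at 0 in all libraries. Of these 10 genes, 5 were higher and 5 lower in RA (median log2 fold change -0.04), and 2 (gfap and olig2) passed in edgeR, higher in RA. Neural crest genes summed to 250 to 318 CPM in DMSO and 173 to 210 CPM in RA, endothelial genes to 77.7 to 90.5 and 7.59 to 21.9 CPM, cranial sensory neuron genes to 875 to 1250.4 and 852 to 987 CPM, and muscle genes to 26.8 to 504 and 39.3 to 1102 CPM. By library the muscle sum was 186, 504 and 26.8 CPM in DMSO against 1102, 43.2 and 39.3 CPM in RA. The highest value came from RA replicate 6 alone. All 4 muscle genes and all 5 epidermal genes were higher in RA by their fitted values, and none passed in edgeR. Blood genes summed to at most 5.12 CPM.

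None of the 52 protocadherins with enough counts to be tested passed an adjusted p-value of 0.05 between RA and DMSO (quasi-likelihood test of edgeR, adjusted by Benjamini-Hochberg over all 17270 tested genes). The share of all tested genes that passed was 0.799%, with 0.446% higher and 0.353% lower in RA. At an unadjusted p-value under 0.05 there were 6 of 52 protocadherins (pcdh8, pcdh10b, pcdh1b, pcdh7a, pcdh9 and pcdh2ab9), beside 10.2% of all tested genes. These were 1 of 33 tested clustered genes (3.03%) and 5 of 19 tested non-clustered genes (26.3%). DESeq2 called 1 member, pcdh9 (adjusted p-value 0.0463, with 3.86% of all genes called). limma-voom with quality weights called 1, pcdh10b (adjusted p-value 0.0374, with 2.28% called), and plain limma-voom called 0 (0.625% called). In 9 of 52 the libraries of the groups did not overlap, 3 higher and 6 lower in RA. That is 17.3%, beside 15.5% of all tested genes (7.78% higher and 7.7% lower), so the share among protocadherins lies near the background. The data bound the changes unevenly. The unadjusted 95% interval of the log2 fold change lay within -1 and 1 for 21 of 52 genes, against 58.2% of all tested genes.

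The median log2 fold change was -0.22 over the 33 tested clustered genes, with 25 lower and 8 higher in RA, and -0.22 over the 19 tested non-clustered genes, with 13 lower and 6 higher. Over all tested genes it was 0.02, with 47.4% lower. Both medians turned on single libraries. Without DMSO replicate 1 the clustered median was -0.04 (18 of 34 lower) and the non-clustered median -0.04 (10 of 19 lower). Without DMSO replicate 4 the clustered median was -0.39. Without RA replicate 6 the non-clustered median was -0.02, without RA replicate 12 it was -0.09, and without RA replicate 9 it was -0.47. RA replicate 6 held the lowest of the 6 values in 16 of 52 protocadherins (30.8%, against 13.9% of all tested genes). It also held the highest sum of muscle markers (1102 CPM), whose part in these values was not tested. In these bulk values, fewer cells that express a gene and less of its RNA per cell cannot be told apart.

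**Figure D1:**
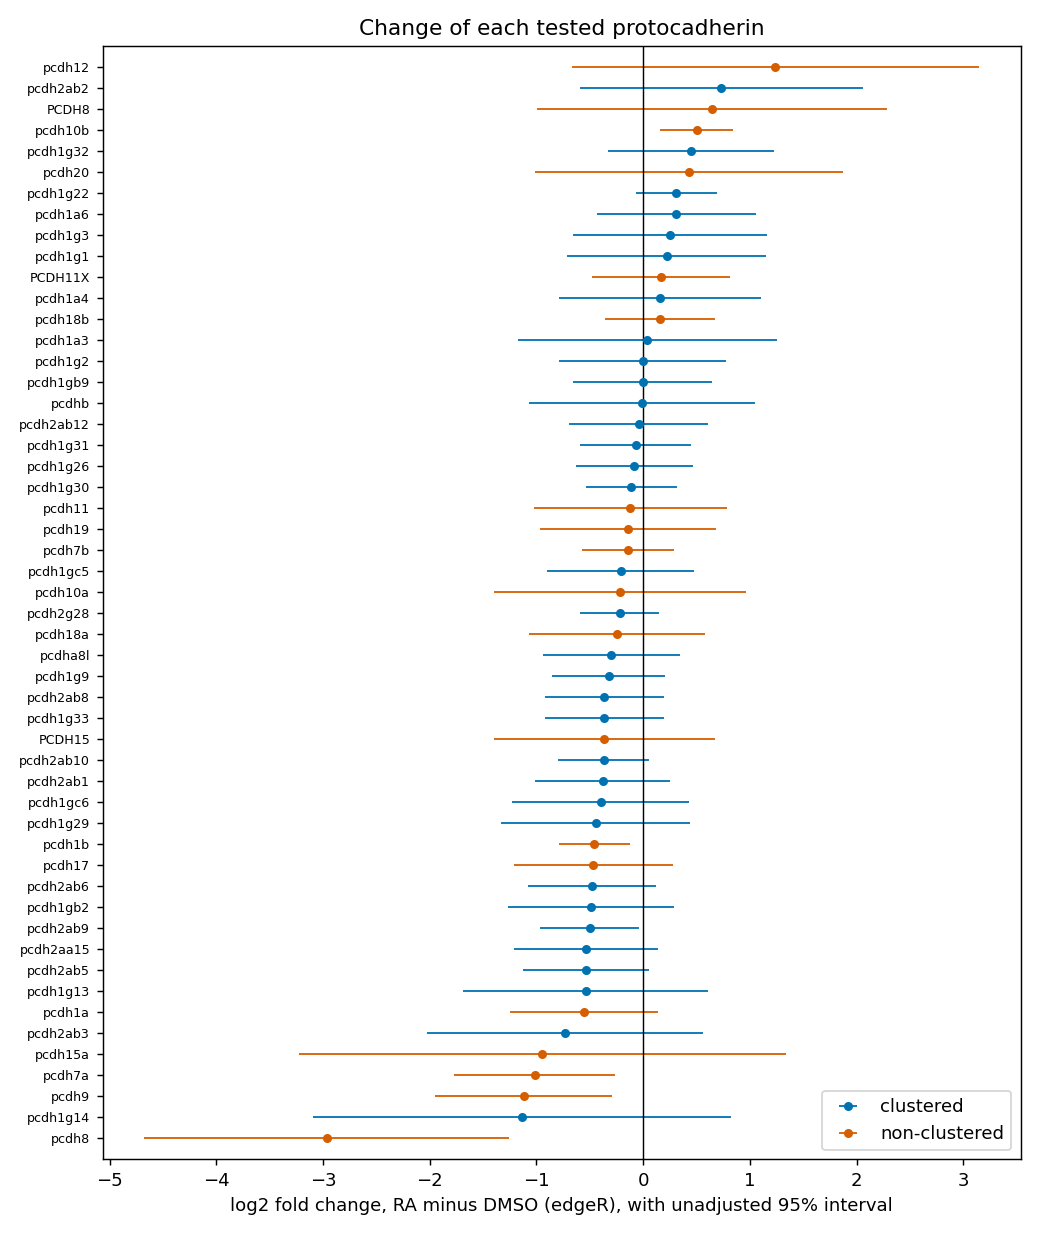
Log2 fold change (x axis, RA minus DMSO) of the 52 tested protocadherins, ordered by value, with unadjusted 95% intervals as bars; blue marks clustered and orange non-clustered genes. Values run from -2.97 for pcdh8 to 1.24 for pcdh12, most bars cross 0, and no gene passed the adjusted threshold.

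Summed over members, the level hardly separated the groups. The 20 non-clustered genes summed to 1271, 978 and 1093 CPM in DMSO replicates 1, 4 and 10 and to 949.9, 1284 and 948 CPM in RA replicates 6, 9 and 12. The 35 clustered genes summed to 752, 568 and 616 CPM in DMSO against 535, 683 and 568 CPM in RA. In both classes the groups overlapped, and DMSO replicate 1 and RA replicate 9 were the high libraries. The delta2, chromosome 10 gamma-type and chromosome 10 alpha-type sums overlapped as well, as did that of the pcdh12, pcdh15 and pcdh20 genes. In these sums the mean was higher in RA (log2 ratio of RA over DMSO means 0.08, 0.02, 0.18 and 0.09). The single beta-type and gamma-type genes of chromosome 14 also overlapped, at log2 ratios of -0.0038 and -0.22. The delta1 sum was 473, 327 and 399 CPM in DMSO against 286, 326 and 303 CPM in RA, where every RA library lay below every DMSO library, RA replicate 9 by a narrow margin. Gene pcdh1b held most of this sum, at 295, 214 and 296 CPM in DMSO against 192, 198 and 196 CPM in RA. Taken singly, 3 of the 7 delta1 genes had groups without overlap, pcdh1b among them. The alpha-type genes of the chromosome 14 array (12) summed to 189.5, 129 and 148 CPM in DMSO against 114, 121 and 125 CPM in RA. Again there was no overlap, by a narrow margin between DMSO replicate 4 and RA replicate 12. No test was made on sums. The marker sums of branchiomotor neurons, neural crest and endothelium were likewise lower in every RA library than in every DMSO library. Not all their genes went with the sums. In RA, 3 of 8 branchiomotor, 1 of 5 neural crest and 1 of 2 endothelial genes were higher. The part of these cells in the protocadherin sums was not tested.

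**Figure D2:**
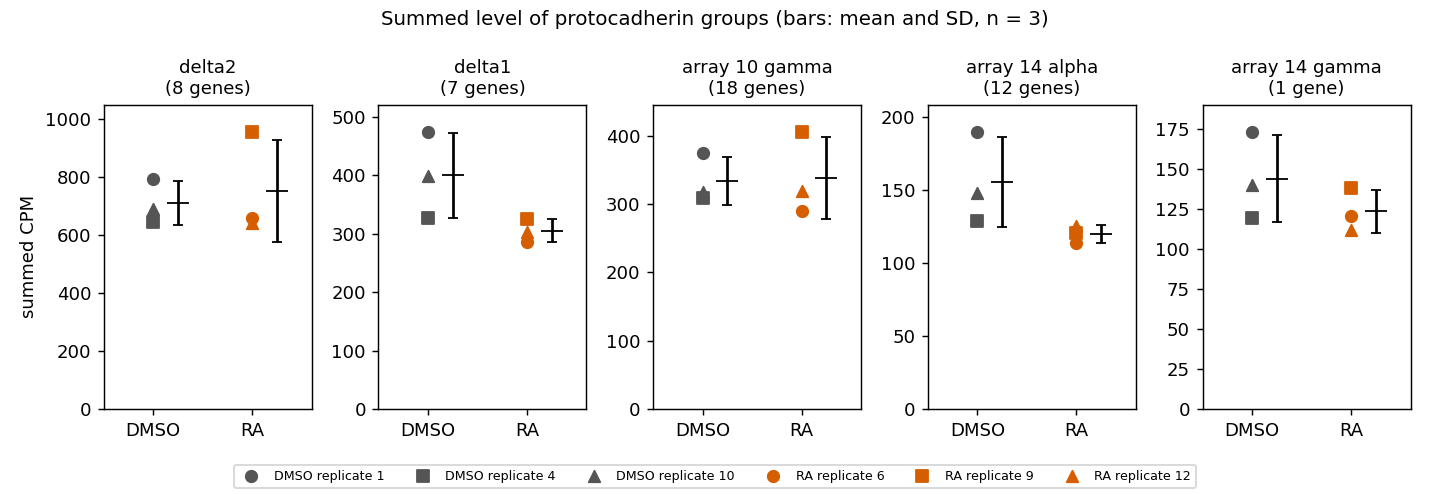
Summed CPM (y axis) of 5 protocadherin groups in each library, with points for single libraries and bars for mean and SD (n = 3 per group). RA replicate 9 stands high in the delta2 panel at 954 CPM, DMSO replicate 1 is the highest in the delta1 and chromosome 14 panels, and each y axis starts at 0.

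Among non-clustered genes the level spanned from 0.0568 RPKM (pcdh15a) to 54.9 RPKM (pcdh10b). The top 5 by CPM, pcdh10b, pcdh1b, pcdh18a, pcdh18b and pcdh19, made up 79.2% of the class. By RPKM the order was pcdh10b, then pcdh18b (31.4), pcdh1b (31.2), pcdh18a (26.4), pcdh17 (15.03), pcdh19 (11.1), PCDH11X (8.74), pcdh7b (7.78), pcdh9 (4.57) and pcdh10a (3.96). Gene pcdh10b lay above 90.7% of all tested genes in RPKM. The ranges over the 6 libraries overlapped between all neighbours among these 10 genes. The range of pcdh1b (25.9 to 39.8 RPKM) lay within those of pcdh18b (22.4 to 40.6) and pcdh18a (14.9 to 41.5). The range of pcdh10b (40.4 to 71.4) met those of pcdh18b and pcdh18a at its lower end and lay above that of pcdh1b.

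**Figure D3:**
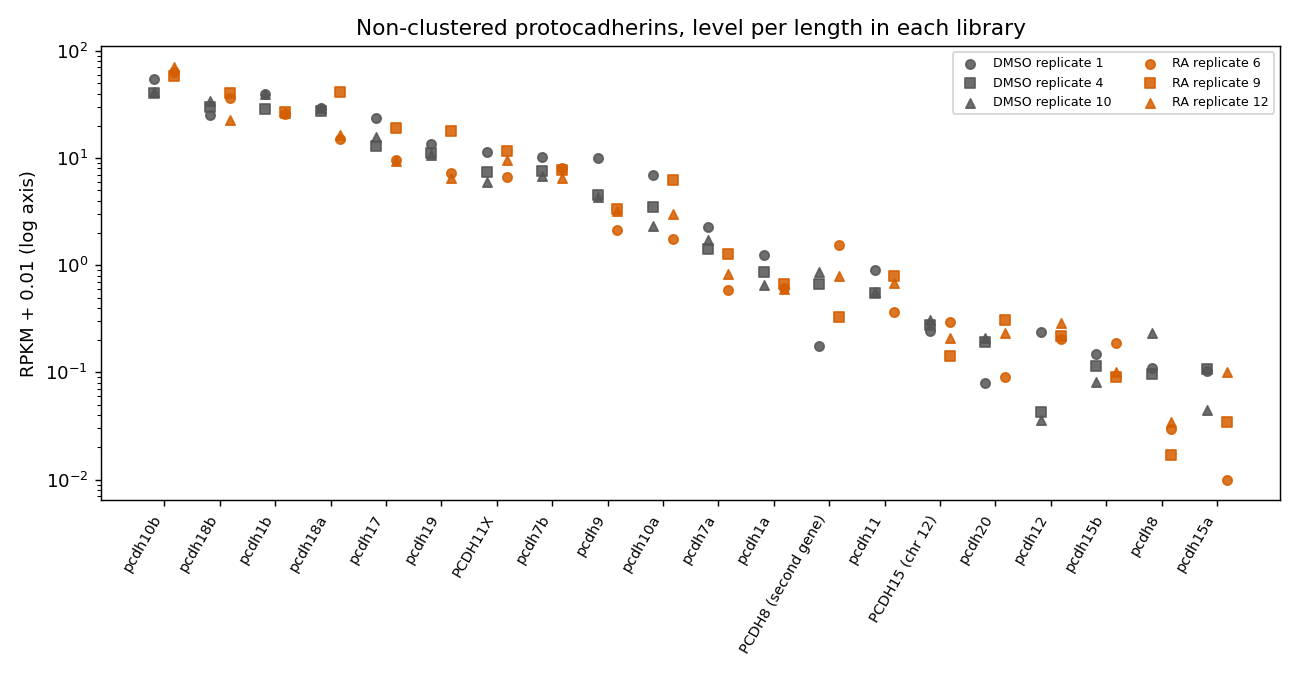
Level per length (y axis, RPKM plus 0.01, log axis) of the 20 non-clustered protocadherins in each of the 6 libraries, ordered by mean; grey marks DMSO, orange RA, and the symbol shape marks the replicate. Delta genes fill the upper part from 54.9 RPKM downward, though the delta2 gene pcdh8 lies at 0.0770 RPKM, the pcdh12, pcdh15 and pcdh20 genes lie at 0.0568 to 0.237 RPKM, and RA replicate 9 (orange squares) stands above the other RA libraries for pcdh18a, pcdh19, pcdh17 and pcdh10a.

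Of the delta2 genes, pcdh10b had the highest level. The mouse protein Pcdh10 binds the WAVE component Nap1 and is needed for axon growth through the ventral forebrain. Gene pcdh10b (ENSDARG00000102824, GRCz11 chromosome 14, 42978695 to 43000836) lay at 253, 189 and 195 CPM in DMSO against 295, 273 and 333 CPM in RA. All RA libraries were above all DMSO libraries. The means were 212 ± 35.7 and 300.5 ± 30.6 CPM (SD, n = 3), a log2 fold change of 0.50 (SE 0.15, 95% interval 0.16 to 0.84), and the adjusted edgeR p-value was 0.232. It stayed between 0.42 and 0.64 when single libraries were left out. Its paralog pcdh10a (ENSDARG00000099729, chromosome 1, 12763461 to 12797410) lay at 31.6, 15.9 and 10.6 CPM in DMSO against 8.03, 28.3 and 13.6 CPM in RA, and the groups overlapped. Per length, pcdh10b exceeded pcdh10a by 7.82-fold (DMSO replicate 1) to 35.8-fold (RA replicate 6).

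In zebrafish, Pcdh18b binds Nap1 and shapes the growth and branching of spinal motor axons. Gene pcdh18b (ENSDARG00000052494, chromosome 14, 42172257 to 42179789) lay at 111, 131 and 151 CPM in DMSO against 160, 179 and 98.8 CPM in RA, with the RA libraries on both sides of the DMSO libraries. Its log2 fold change was 0.15 (SE 0.22, 95% interval -0.36 to 0.67). The paralog pcdh18a (ENSDARG00000089805, chromosome 1, 13260809 to 13271569) was even across DMSO, at 153, 144 and 155 CPM, and split in RA, at 78.4, 218 and 85.3 CPM. RA replicates 6 and 12 lay below all DMSO libraries and RA replicate 9 above them. The log2 fold change was -0.24 (SE 0.36, adjusted edgeR p-value 0.933). Without RA replicate 9 it was -0.89, and pcdh18a passed the threshold as the 1 protocadherin to do so in that fit (adjusted edgeR p-value 0.0158, with 1.83% of all genes called).

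RA replicate 9 also stood above the other RA libraries in the delta2 genes pcdh19 and pcdh17. Pcdh19 pairs with N-cadherin and acts in shaping the zebrafish neural tube, and the human gene is mutated in an epilepsy of females. Gene pcdh19 (ENSDARG00000034344, chromosome 14, 40300961 to 40390757) lay at 115, 94.8 and 90.6 CPM in DMSO against 62.1, 153 and 56.0 CPM in RA. Again RA replicates 6 and 12 were below, and RA replicate 9 above, every DMSO library, and without RA replicate 9 the log2 fold change went from -0.14 to -0.77 (adjusted edgeR p-value 0.0677). In zebrafish, pcdh17 acts in the sorting of motor neurons of the abducens nucleus, another cranial motor group. Gene pcdh17 (ENSDARG00000027041, chromosome 11, 32576300 to 32723851) lay at 129, 69.2 and 84.8 CPM in DMSO against 51.9, 102 and 50.6 CPM in RA. Here RA replicate 9 lay within the DMSO range and the other RA libraries below it. The log2 fold change was -0.47 (SE 0.32, adjusted edgeR p-value 0.749), and -0.88 without RA replicate 9. The summed progenitor and glial markers lay at 2152, 2000 and 1874 CPM in DMSO against 1552, 2456 and 1503 CPM in RA. Their order of libraries was that of pcdh19. It was not that of pcdh18a, which was higher in DMSO replicate 10 than in DMSO replicate 1 and lowest in RA replicate 6. Nor was it that of pcdh17, which was highest in DMSO replicate 1 and lower in DMSO replicate 4 than in replicate 10. The order of pcdh10a, also highest in DMSO replicate 1, differed as well. RA replicate 9 also held the highest sum of 5 epidermal markers, 678 CPM against 34.8 to 310 CPM in the other libraries. The part of other cells in these values was not tested.

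The remaining delta2 genes had few counts. Zebrafish pcdh8, also called papc, acts in cell movements of the early mesoderm. Gene pcdh8 (ENSDARG00000006467, chromosome 9, 53654866 to 53666031) had 13, 13 and 28 counts in DMSO and 2, 1 and 3 counts in RA. The groups did not overlap, and its log2 fold change of -2.97 had an interval from -4.67 to -1.26 (unadjusted p-value 0.00385 from edgeR, adjusted 0.155). All RA counts lie at or below the floor of 3 counts per library, so the size rests on few counts. It is named here because its unadjusted p-value was the lowest of the members, a choice made after its values were seen. A neighbouring gene that carries the orthologue symbol PCDH8 (ENSDARG00000102185, chromosome 9, 53707240 to 53719543) had 10, 45 and 50 counts in DMSO and 72, 21 and 45 in RA, with partial overlap. Its log2 fold change was 0.64 (SE 0.71), opposite in direction to that of pcdh8. In all it had 243 counts, against 60 for pcdh8.

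Of the delta1 genes 6 of 7 lay lower in RA (median log2 fold change -0.46), beside 47.4% lower of all tested genes. In 3 of 7 the groups did not overlap (15.5% of all genes). With edgeR 0 of 7 passed the threshold, and 3 of 7 had an unadjusted p-value under 0.05 (10.2% of all genes), while DESeq2 called 1, pcdh9. DMSO replicate 1 held the highest of the 6 values in 5 of 7 (22.6% of all genes). Pcdh1 is an adhesion protein of many epithelia, and in mammals the entry receptor of some hantaviruses. Gene pcdh1b (ENSDARG00000036175, chromosome 14, 37545341 to 37831941) lay at 295, 214 and 296 CPM in DMSO against 192, 198 and 196 CPM in RA. The RA libraries were nearly equal and all below DMSO. Means were 268 ± 47.1 and 195 ± 2.85 CPM, a log2 fold change of -0.46 (SE 0.15, 95% interval -0.79 to -0.12, adjusted edgeR p-value 0.277). Its paralog pcdh1a (ENSDARG00000062720, chromosome 10, 20920364 to 21054059) was far lower, at 9.13, 6.29 and 4.76 CPM in DMSO against 4.42, 4.91 and 4.40 CPM in RA. Per length, pcdh1b exceeded it by 32.1-fold to 61.7-fold in single libraries. DMSO replicate 10 overlapped the RA range of pcdh1a.

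The Xenopus orthologue of pcdh7, NF-protocadherin, acts in the outgrowth of retinal axons. Gene pcdh7a (ENSDARG00000078898, chromosome 1, 15137901 to 15203357) lay at 17.1, 10.5 and 12.9 CPM in DMSO against 4.36, 9.42 and 6.23 CPM in RA. All RA libraries were below DMSO, with a log2 fold change of -1.01 (SE 0.33, 95% interval -1.77 to -0.26, adjusted edgeR p-value 0.286). The more abundant paralog pcdh7b (ENSDARG00000060610, chromosome 7, 63324888 to 63570206) lay at 53.9, 40.4 and 36.3 CPM in DMSO against 43.0, 40.8 and 34.4 CPM in RA. Its groups overlapped, and its log2 fold change was -0.14 (SE 0.19, 95% interval -0.58 to 0.29). The ratio of pcdh7b to pcdh7a per length was 3.97 to 5.41 in DMSO and 6.11 to 13.9 in RA, higher in each RA library than in each DMSO library. This ratio was not tested.

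Gene pcdh9 (ENSDARG00000063264, chromosome 6, 4872883 to 4984243), a delta1 gene of neurons, lay at 39.3, 17.7 and 17.003 CPM in DMSO against 8.34, 13.2 and 12.6 CPM in RA. The groups did not overlap, but DMSO replicate 1 lay far above the other 5 libraries. The log2 fold change was -1.12 (SE 0.36, 95% interval -1.95 to -0.29, adjusted edgeR p-value 0.286), and it ranged from -1.33 to -0.62 when single libraries were left out. The value nearest 0 came without DMSO replicate 1. Gene PCDH11X (ENSDARG00000098652, chromosome 14, 27120406 to 27297123) lay at 54.0, 35.6 and 28.5 CPM in DMSO against 31.7, 55.5 and 45.6 CPM in RA, with overlap. The human pair PCDH11X and PCDH11Y lies on the sex chromosomes. An adjoining gene, pcdh11, overlaps PCDH11X in 4.03% of the exon bases of PCDH11X and had 33 to 104 counts per library.

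The pcdh12, pcdh15 and pcdh20 genes were scarce, at 0.0568 to 0.237 RPKM. In mammals pcdh12 is an adhesion gene of endothelium, and Pcdh15 forms part of the tip links of hair cells. Gene pcdh12 (ENSDARG00000076594, chromosome 14, 16308840 to 16328331) had 18, 3 and 2 counts in DMSO and 12, 18 and 21 in RA, with overlap through DMSO replicate 1 and a log2 fold change of 1.24 (SE 0.83). Without DMSO replicate 1 it was 2.86. Its low counts put it outside the naming rule, and it was chosen after its values were seen. Of the 2 endothelial markers found in the data, kdrl was lower in RA and passed the threshold (log2 fold change -2.73, adjusted edgeR p-value 0.0197). The other, cdh5, was higher in RA by its fitted value and was at 0 in 3 of 6 libraries. The part of endothelial cells in the pcdh12 values was not tested. Gene pcdh20 (ENSDARG00000036424, chromosome 11, 42910904 to 42918971) had 10, 30 and 28 counts in DMSO and 9, 47 and 31 in RA, again with overlap. The pcdh15 genes had 0 to 38 counts per library. The entry pcdh15b (chromosome 12, 6542789 to 6551681, 5 exons) was too low to be tested. A neighbouring entry with the orthologue symbol PCDH15 (ENSDARG00000008127, 6566233 to 6905375, 35 exons) resolved to the same zebrafish name. It had 29, 38 and 36 counts in DMSO and 28, 18 and 24 in RA, and was tested (log2 fold change -0.37, SE 0.45). Whether both entries belong to the same gene was not examined.

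The clustered genes lie in a chromosome 10 array of 260.5 kb (21559605 to 21820133, 21 members) and a chromosome 14 array of 482.2 kb (1887677 to 2369849, 14 members). The former holds 3 alpha-type and 18 gamma-type members, and the latter 12 alpha-type, 1 beta-type (pcdhb) and 1 gamma-type member. These types follow the letter in the symbol alone. Of the 35 clustered members, 30 share exon bases with another annotated gene, for 7 of them over 50% of their bases, and fragments assigned equally to several genes were left out. Among the non-clustered members 4 of 20 share any, at most 10.7%. Gene pcdh2ab3 shares all of its exon bases and still had 156 counts in all. The 1 gamma-type member of the chromosome 14 array, pcdh2g28, was annotated with 14 exons and 30619 exon bases, from 1887677 to 2032753. It held 21.6% of the summed CPM of the clustered class, the largest share. Whether this entry joins several array genes was not examined. Another 14 annotated genes without a pcdh symbol lie within the chromosome 14 array and 5 within the chromosome 10 array, and they were not examined.

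Levels differed widely along the gamma genes of the chromosome 10 array, with the highest gene the same in all 6 libraries. The 9 upstream genes lay at 0.636 to 5.60 RPKM (median 0.883) and the 9 downstream genes at 0.223 to 24.1 RPKM (median 3.74). Shared bases count in full in these lengths, although fragments on them may be left out. The gene with the most downstream start among these 18 members, pcdh1g32 (ENSDARG00000100829, 21807497 to 21820057), was the highest. It carried 31.5% of the summed CPM of the 18 genes. The C-type genes pcdh1gc5 and pcdh1gc6 lay at 3.74 and 3.96 RPKM.

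**Figure D4:**
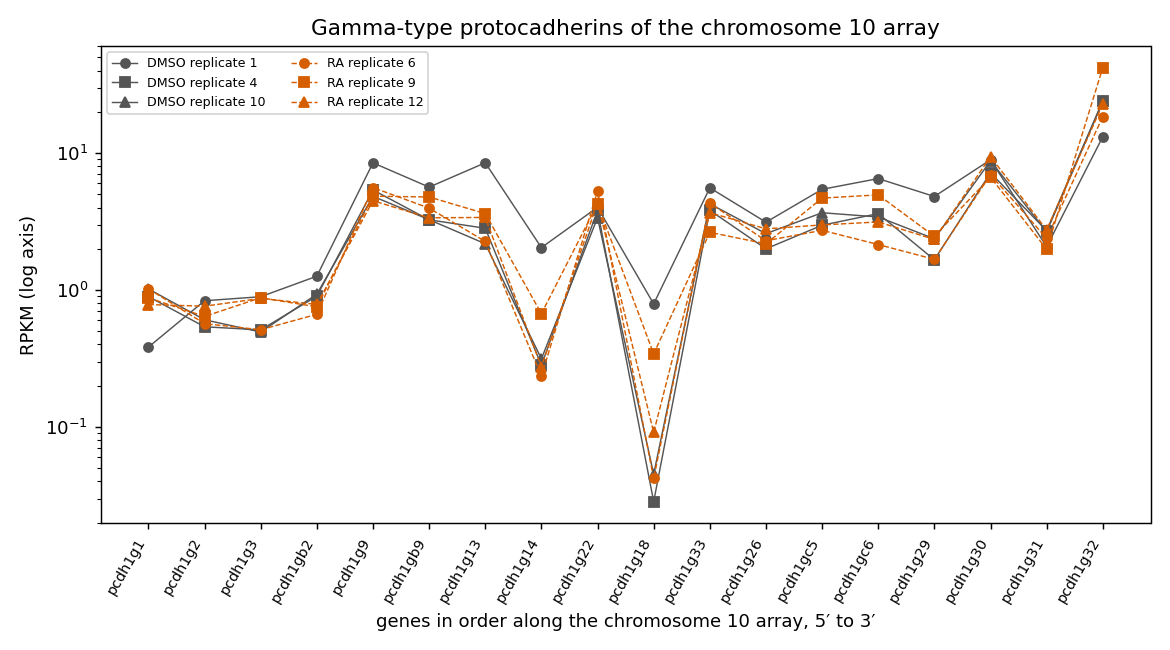
Level per length (y axis, RPKM, log axis) for the 18 gamma-type genes in their order along chromosome 10, with 1 line per library, grey for DMSO and orange for RA. The lines peak at pcdh1g32 and dip at pcdh1g14 and pcdh1g18. At these dips the libraries spread over 0.234 to 2.04 RPKM and 0.0285 to 0.791 RPKM, with DMSO replicate 1 highest. DMSO replicate 1 is the highest library in 12 of the 17 tested genes shown, and the lowest at pcdh1g32 and at pcdh1g1.

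Gene pcdh1g32 lay at 57.9, 106 and 105 CPM in DMSO against 81.2, 185 and 100.3 CPM in RA. DMSO replicate 1 was the lowest, RA replicate 6 the next and RA replicate 9 the highest. DMSO replicates 4 and 10 and RA replicate 12 were close together. Its log2 fold change was 0.45 (SE 0.34, 95% interval -0.33 to 1.23, adjusted edgeR p-value 0.781), 0.01 without RA replicate 9 and -0.02 under quality weights in limma-voom. As a share of the gamma sum of this array it made up 15.5% in DMSO replicate 1, 33.0% and 34.3% in the other DMSO libraries, and 27.9%, 45.7% and 31.5% in RA replicates 6, 9 and 12.

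DMSO replicate 1 stood apart in the opposite sense for most other array genes. It held the highest of the 6 values in 22 of 33 tested clustered genes (66.7%) and in 7 of 19 non-clustered genes (36.8%), against 22.6% of all tested genes. It was not the highest in every array gene, and the following were among those with a wide gap. Gene pcdh1g14 (ENSDARG00000104057, 21726853 to 21729246) lay at 4.88 CPM there and at 0.675 and 0.752 CPM in the other DMSO libraries, with 0.560, 1.61 and 0.658 CPM in RA. Gene pcdh1g13 (ENSDARG00000098963, 21722892 to 21725312) lay at 20.6, 6.83 and 5.27 CPM in DMSO against 5.48, 8.75 and 8.20 CPM in RA. Gene pcdh1g18, too low to be tested, had 72 counts in DMSO replicate 1, 3 and 4 in the other DMSO libraries and 3, 34 and 8 in RA. Without DMSO replicate 1 the log2 fold changes of pcdh1g14 and pcdh1g13 turned from -1.14 and -0.54 to 0.40 and 0.30. Both genes consist of 1 annotated exon and share none of it with another gene. Markers of other hindbrain neurons (529 CPM against 287 to 449 CPM elsewhere) and of branchiomotor neurons (7786 CPM against 3965 to 6915 CPM) also summed highest in this library, and cell cycle genes lowest (1121 CPM against 1448 to 1923 CPM). Their part in the result was not tested.

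Within the chromosome 10 array, pcdh1g22 and pcdh1g30 were steadier. Gene pcdh1g22 (ENSDARG00000103013, 21730585 to 21820133) lay at 28.0, 26.5 and 23.5 CPM in DMSO against 36.9, 29.6 and 30.3 CPM in RA. All RA libraries were above DMSO, with a log2 fold change of 0.31 (SE 0.17, 95% interval -0.07 to 0.69, adjusted edgeR p-value 0.617). Gene pcdh1g30 (ENSDARG00000101865, 21801030 to 21820133) lay at 39.9, 32.0 and 39.2 CPM in DMSO against 31.1, 29.8 and 42.1 CPM in RA, with overlap and an interval of -0.54 to 0.32. Gene pcdh1g9 (ENSDARG00000057519, 21701551 to 21820133) lay at 64.7, 41.0 and 36.9 CPM in DMSO against 42.7, 37.0 and 34.2 CPM in RA, where only DMSO replicate 1 stood out. The alpha-type genes pcdh1a3, pcdh1a4 and pcdh1a6 were scarce, at 0.200 to 0.946 RPKM, and their log2 fold changes were 0.04 to 0.31. Leaving out single libraries turned the direction of pcdh1a3 (-0.41 to 0.24) and pcdh1a4 (-0.36 to 0.48). Gene pcdh1a6 (ENSDARG00000104598, 21559605 to 21648767) was at 2.05, 3.16 and 2.71 CPM in DMSO against 3.42, 3.17 and 3.24 CPM in RA, with a gap between the groups smaller than the spread within DMSO (log2 fold change 0.31, SE 0.32).

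In the chromosome 14 array, 10 of 11 tested alpha-type genes were lower in RA (median log2 fold change -0.38). All but pcdha8l, which has 1 exon and shares none of its bases, share exon bases with other annotated genes (26.1% to 100%). The shared bases were not sorted into constant and variable exons. Their promoters also lie near each other, so they are not independent. Over all annotated exon bases, shared ones included, the highest levels were those of pcdh2ab12 (6.32 RPKM) and pcdh2ab10 (4.99 RPKM). With counts divided by unshared bases alone, pcdh2ab5 (12.4) and pcdh2ab6 (10.3) came before pcdh2ab12 (8.92) and pcdh2ab10 (6.99), so the order depends on how shared bases are treated. Gene pcdh2ab10 (ENSDARG00000103906, 2123123 to 2193248) lay at 22.1, 17.9 and 18.7 CPM in DMSO against 14.7, 17.1 and 13.5 CPM in RA, with no overlap (log2 fold change -0.37, SE 0.19, adjusted edgeR p-value 0.578). Gene pcdh2ab12 (ENSDARG00000104080, 2123123 to 2187202) lay at 24.8, 16.7 and 23.8 CPM in DMSO against 16.4, 16.9 and 30.2 CPM in RA, with RA replicate 12 the highest of all. DMSO replicate 1 held the highest value in 9 of 11 of these genes.

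Gene pcdh2ab5 (ENSDARG00000090348, 2123123 to 2209742) lay at 18.6, 12.4 and 11.2 CPM in DMSO against 9.03, 11.4 and 8.71 CPM in RA, a log2 fold change of -0.53 (SE 0.26, adjusted edgeR p-value 0.55). Gene pcdh2ab9, with 20230 exon bases of which 54.7% are shared, was the 1 clustered gene at an unadjusted p-value under 0.05 and is named for that after its values were seen. It lay at 34.5, 22.3 and 30.4 CPM in DMSO against 22.8, 19.1 and 19.6 CPM in RA. RA replicate 6 overlapped DMSO replicate 4 there, and the log2 fold change was -0.50 (SE 0.20, adjusted edgeR p-value 0.447). The scarce gene pcdh2ab3 (ENSDARG00000102719, 2123123 to 2213660) lay at 2.34, 1.35 and 1.00 CPM in DMSO against 0.872, 1.43 and 0.506 CPM in RA (fitted log2 fold change -0.73, SE 0.56). The scarce gene pcdh2ab2 (ENSDARG00000037691, 2123564 to 2217377) lay at 0.391, 0.759 and 0.853 CPM in DMSO against 0.623, 0.982 and 1.72 CPM in RA (fitted log2 fold change 0.73, SE 0.58). The groups overlapped in both. The gamma-type gene pcdh2g28 lay at 173, 119.6 and 139.99 CPM in DMSO against 121, 139 and 112 CPM in RA. The fitted log2 fold change was -0.22 (SE 0.16, 95% interval -0.59 to 0.15), the narrowest interval of the clustered genes. This estimate is for the entry as annotated, with 14 exons and 30619 exon bases, which may join several array genes.

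Genes known to work with protocadherins were examined in 4 lists, and none of their genes passed the threshold in edgeR, DESeq2 or plain limma-voom. At an unadjusted edgeR p-value under 0.05 there were 5 genes in all (1 of the WAVE list, 2 of the kinases and adaptors, 2 of the large cadherins), beside 10.2% of all tested genes. In limma-voom with quality weights dchs1b was called, beside 2.28% of all genes. The WAVE complex list had 6 genes higher and 7 lower of 13 tested (median log2 fold change -0.07). Its largest changes were those of cyfip1, a WAVE subunit, at 0.44 (SE 0.13, all RA libraries above DMSO, adjusted edgeR p-value 0.244), and of the scarce nckap1l at -0.41 (SE 0.99). The list of kinases and adaptors had 4 higher and 14 lower of 18 (median -0.10). It also held GTPase, exchange factor and phosphatase genes, such as rac1a, tiam1a and ppp1caa. The focal adhesion family kinase gene ptk2bb had the largest change, at 1.84 (SE 0.84, adjusted edgeR p-value 0.52). Its counts were few, at 33, 32 and 7 in DMSO and 73, 151 and 12 in RA, with overlap. Next came the Reelin adaptor gene dab1b at -0.91 (SE 0.29, adjusted edgeR p-value 0.277). Chromatin factors that act on the clustered promoters, such as ctcf and cohesin, had 5 higher and 13 lower of 18 (median -0.05). Their largest changes were small, at -0.27 (SE 0.20) for smchd1 and -0.26 (SE 0.17) for rad21b. Other large cadherins had 8 higher and 7 lower of 15 (median 0.04), led by dchs1a at -0.997 (SE 0.71) and dchs1b at 0.65 (SE 0.19, adjusted edgeR p-value 0.226).

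The members differed in how far libraries of a group spread. The median biological coefficient of variation, the spread between libraries beyond counting, was 0.307 over the tested protocadherins and 0.261 over all tested genes. It was 0.163 for pcdh1b, 0.165 for pcdh10b and 0.175 for pcdh2g28, 0.450 for pcdh10a and 0.707 for pcdh1g14, and highest for the scarce pcdh15a at 0.713.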

How the data were processed

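The deposited values are raw counts of fragments per gene, made by the authors with featureCounts 1.6.0, per the file headers, for read pairs, ignoring strand, on the GRCz11 annotation of Ensembl release 95. The submitters' processing notes name STAR 2.5.2a. Fragments that map to several places or overlap several genes equally were not counted with the options shown. Symbols came from a table of Ensembl identifiers (29201 of 32520 genes). For 14 members that the table gives in capitals, the lower-case zebrafish name came from RefSeq (GRCz12tu, names alone), where just 1 such name was found on their chromosome.

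Tests used edgeR 4.0.16 in R 4.3.3 with filterByExpr, TMM scaling and the quasi-likelihood test, RA against DMSO, and p-values adjusted by Benjamini-Hochberg over 17270 genes. DESeq2 1.42.0 and limma 3.58.1 served as alternatives, beside other scalings (DESeq2 size factors, upper quartile), no filter, a filter at a mean of 10 CPM, a robust dispersion and leaving out each library. Standard errors are the log2 fold change over the square root of F, and 95% intervals use 8.15 degrees of freedom. In simulated counts for this comparison, 65.0% to 73.5% of 200 genes changed 4-fold were recovered among 16898 to 16904 genes, and 6.00% to 6.47% of calls were false.

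Clustered members were set by a cluster letter in the symbol, and pcdhb, which has no number after its letter, by its place beside the chromosome 14 array. Described in every library are the 10 non-clustered and 5 clustered genes of highest RPKM and, where the higher group averaged 20 counts or more, the 4 highest rises and falls by log2 fold change in each class. Genes added after their values were seen are pcdh8, pcdh12, pcdh1g18, pcdh2ab9 and pcdh2g28. The entry PCDH15 was also described by library outside this rule. Members and lists were chosen with earlier results of these data known. Of the partner lists, 1 is not reported here. The floor of 3 counts is 0.128 to 0.188 CPM and covers counting error only.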

Additional observations from a re-analysis of the deposited data

How the results depend on the processing

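With 14 alternative fits, no setting called more than 1 protocadherin, and 18 of 356 values of the 26 named members changed direction. The count of all genes called was 138, and 276 with no filter, 699 with DESeq2, 394 with limma-voom quality weights and 9 to 325 when single libraries were left out. The count of protocadherins called was 0, and 1 with DESeq2 (pcdh9), 1 with limma-voom quality weights (pcdh10b) and 0 to 1 when single libraries were left out (pcdh18a without RA replicate 9). Leaving out single libraries gave a median of -0.39 to -0.0377 for the clustered and -0.47 to -0.02 for the non-clustered genes, and limma-voom quality weights gave -0.12 and -0.37. The clustered median was -0.33 with the filter at a mean of 10 CPM (17 of 19 lower), -0.32 with no filter and -0.30 with DESeq2. The summed level, as the log2 ratio of group means, was -0.12 for clustered (-0.23 to 0.01) and -0.07 for non-clustered genes (-0.23 to 0.04). Directions changed on leaving out libraries for pcdh1g13 (-0.87 to 0.30), pcdh1g14 (-1.78 to 0.40), pcdh2ab12 (-0.39 to 0.11), pcdh10a (-0.85 to 0.32), pcdh18a (-0.89 to 0.009), pcdh19 (-0.77 to 0.11), pcdh18b (-0.0205 to 0.37), PCDH11X (-0.0332 to 0.46), pcdh7b (-0.26 to 0.0322) and PCDH8 (-0.0243 to 1.08). With limma-voom quality weights they changed for pcdh1g32 (-0.024) and pcdh20 (-0.32). Beyond fewer samples in the fits, the cause was not tested. The scalings, the member minimum of 100 counts and the limit on shared exon bases kept the medians within the spread between libraries. No paired analysis was possible because the groups share no replicate number. Depth limits the members under about 20 counts per library, such as pcdh8, pcdh12 and pcdh15a.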
